A study of Aptenodytes patagonicus with 3 samples.

Results

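The genes described here are the core genes of autophagy, read in the pectoralis, the breast muscle that moves the flippers, of 3 artificially acclimated (AA) king penguin juveniles. All probe sets whose single gene symbol in the platform annotation is one of 10 listed genes were taken: ULK1, BECN1, ATG12, ATG5, ATG16L1, ATG7, ATG3, MAP1LC3B, GABARAPL1 and SQSTM1. This gave 21 of the 36813 probe sets on the array, for 9 of the 12913 genes with a probe set. ATG16L1 was not analysed here because the annotation names no probe set for it.

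The AA birds were wild juveniles, captured before they were a year old and before any immersion, which moulted in captivity and then went into water at 8 °C for 5 hours every 2 days, 10 times in all. The paper states that the penguins were fed mackerel daily to control for nutritional status. The labels give bird 2 as the male and birds 1 and 3 as females. Each bird gave 1 biopsy and 1 Affymetrix Chicken Genome array. Never-immersed and sea-acclimatized birds were not analysed here, so the values show how birds of 1 condition differ and not what immersion changed.

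Autophagy is the route by which a cell wraps part of its cytoplasm in a double membrane, the autophagosome, and delivers it to the lysosome for breakdown. The kinase ULK1 starts it, and the lipid kinase complex that holds Beclin 1 (BECN1) marks the membrane. ATG7 activates the ubiquitin-like proteins ATG12 and LC3, ATG12 is joined to ATG5, and ATG3 then attaches LC3 (MAP1LC3B) or its relative GABARAPL1 to a membrane lipid. SQSTM1, also called p62, carries ubiquitin-tagged cargo to LC3 and is degraded with it. In skeletal muscle this route clears damaged mitochondria and protein aggregates, and in mammals it rises with fasting. RNA levels such as those given here are not a measure of the flow through it.

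Values are deposited log2 signals, on which 1 unit is a doubling. The chicken probes bind penguin RNA across the difference between the species, so differences between birds are taken within a probe set. Brightest probe sets, quartiles of signal and sums over cell type markers set different probe sets together, so they also depend on binding. Where a gene has several probe sets, they are numbered from the brightest, and the brightest stands for the gene. Signals below 7.88 in the mean over the birds lie in the dimmest 25% of all probe sets, which was the case for 5 of the 21, 1 each of ULK1, ATG12, ATG7, GABARAPL1 and SQSTM1. By their platform names, 10 of the 21 can bind several transcripts (cross-binding). These include the only ATG5 probe set and the brightest of ATG12, ATG7, BECN1 and MAP1LC3B. All 9 measured skeletal muscle markers of the 12 listed lay above the upper quartile of mean signal, 9.62.

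On the brightest probe set of each core gene, 3 of 9 genes had their highest value in bird 1, 3 in bird 2 and 3 in bird 3, beside 27.5%, 41.5% and 31.0% of all genes. Over all their probe sets the split was 4, 6 and 11 of 21. SQSTM1 and ATG12 were the only genes with several probe sets on which the same bird was highest on every one. ULK1 and MAP1LC3B differed most between birds, but on probe sets that other probe sets of the same gene did not follow. BECN1 differed least on its brightest probe set.

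**Figure D1:**
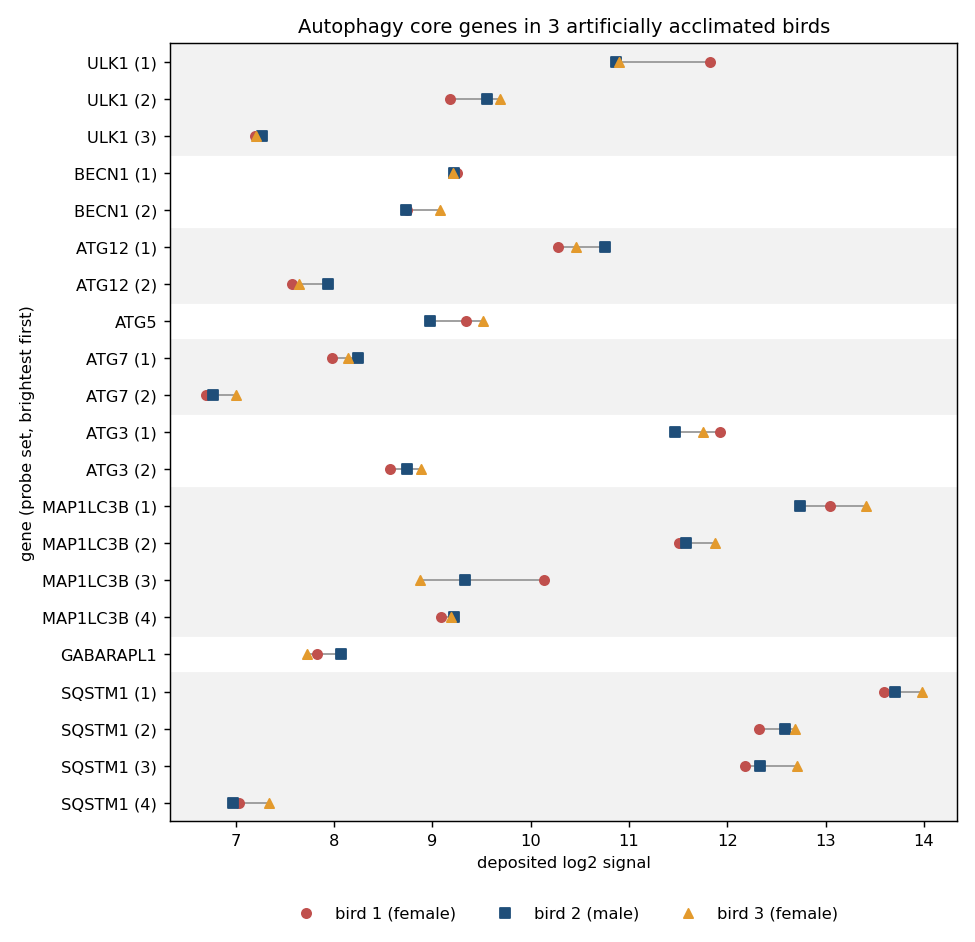
Deposited log2 signal (x axis) of the 21 probe sets of 9 autophagy core genes (y axis, brightest probe set first within a gene), 1 point per bird, with a line over the range of the 3 birds. SQSTM1 is highest in bird 3 on all 4 probe sets, and ULK1 (1) and MAP1LC3B (3) have the widest ranges, 0.95 and 1.26.

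Among the genes that start autophagy, ULK1 had the widest spread of all 9 genes on the brightest probe set. It read 11.82 in bird 1, 10.87 in bird 2 and 10.90 in bird 3 (11.20 ± 0.54, SD, n = 3). Bird 1 lay 0.94 above the mean of the other birds, which were almost equal. The second probe set read 9.18, 9.56 and 9.68 in birds 1, 2 and 3, so that bird 1 was the lowest there. The dimmest read 7.19, 7.27 and 7.20. The high ULK1 value of bird 1 was not seen on the other ULK1 probe sets.

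BECN1, a regulatory subunit of the lipid kinase complex, read 9.25, 9.22 and 9.21 in birds 1, 2 and 3 on its brightest probe set. The mean was 9.22 and the SD 0.019 (n = 3). Its range of 0.035 was wider than that of 0.68% of all probe sets. The other BECN1 probe set read 8.74, 8.73 and 9.08, with bird 3 apart from the other birds by 0.35.

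The ATG12 and ATG5 proteins are joined to each other, but their transcripts were ordered differently in the birds. On the brighter probe set ATG12 read 10.28 in bird 1, 10.76 in bird 2 and 10.46 in bird 3 (10.50 ± 0.24, SD, n = 3). On the dimmer one it read 7.57, 7.94 and 7.64 (7.72 ± 0.19, SD, n = 3). The order of the birds was the same on both, with the male bird 2 the highest and bird 1 the lowest. ATG5, on its only probe set, read 9.34, 8.98 and 9.51 (9.28 ± 0.27, SD, n = 3). Here bird 2 was the lowest, by 0.45 against the mean of the females.

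ATG7, the enzyme that activates both ubiquitin-like proteins, read 7.98 in bird 1, 8.24 in bird 2 and 8.15 in bird 3 (8.12 ± 0.13, SD, n = 3). On its other probe set, of the dimmest 25%, the values were 6.69, 6.77 and 7.002. Bird 1 was the lowest on both. On its brighter probe set ATG3, which transfers LC3 to the lipid, read 11.93, 11.47 and 11.75 (11.72 ± 0.23, SD, n = 3). On the other it read 8.57, 8.75 and 8.88, so that bird 1 was the highest on the first and the lowest on the second.

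MAP1LC3B, the gene of the protein whose lipid-bound form marks autophagosomes, had 4 probe sets that did not rank the birds alike. The brightest read 13.05 in bird 1, 12.74 in bird 2 and 13.41 in bird 3 (13.07 ± 0.34, SD, n = 3). The second read 11.51, 11.58 and 11.88. Bird 3 was the highest on both, by 0.52 and 0.33 against the mean of the other birds. The third, the only one of the 4 with an A in place of the S near the end of its platform name, read 10.14, 9.33 and 8.88, the widest range among the 21 at 1.26, and bird 3 was the lowest there. The fourth read 9.09, 9.22 and 9.19, a range of 0.13. Its platform name differs from that of the second only in the ending, but bird 2 and not bird 3 was the highest on it. GABARAPL1, which the annotation names on 1 probe set of the dimmest 25%, read 7.83, 8.07 and 7.73 (7.87 ± 0.17, SD, n = 3).

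SQSTM1, the cargo receptor, was highest in bird 3 on all 4 of its probe sets. The brightest read 13.59, 13.71 and 13.98 in birds 1, 2 and 3 (13.76 ± 0.20, SD, n = 3). A pair of probe sets whose platform names differ only in the ending read 12.32, 12.59 and 12.69, and 12.18, 12.33 and 12.71. The dimmest read 7.03, 6.97 and 7.34. Bird 3 lay between 0.23 and 0.45 above the mean of the other birds, and bird 1 between 0.12 and 0.34 below the mean of birds 2 and 3. Of the 867 genes with 4 probe sets, 6.92% had 1 bird highest on all 4, and in 2.08% that bird was bird 3. SQSTM1 was singled out after its values were seen.

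**Figure D2:**
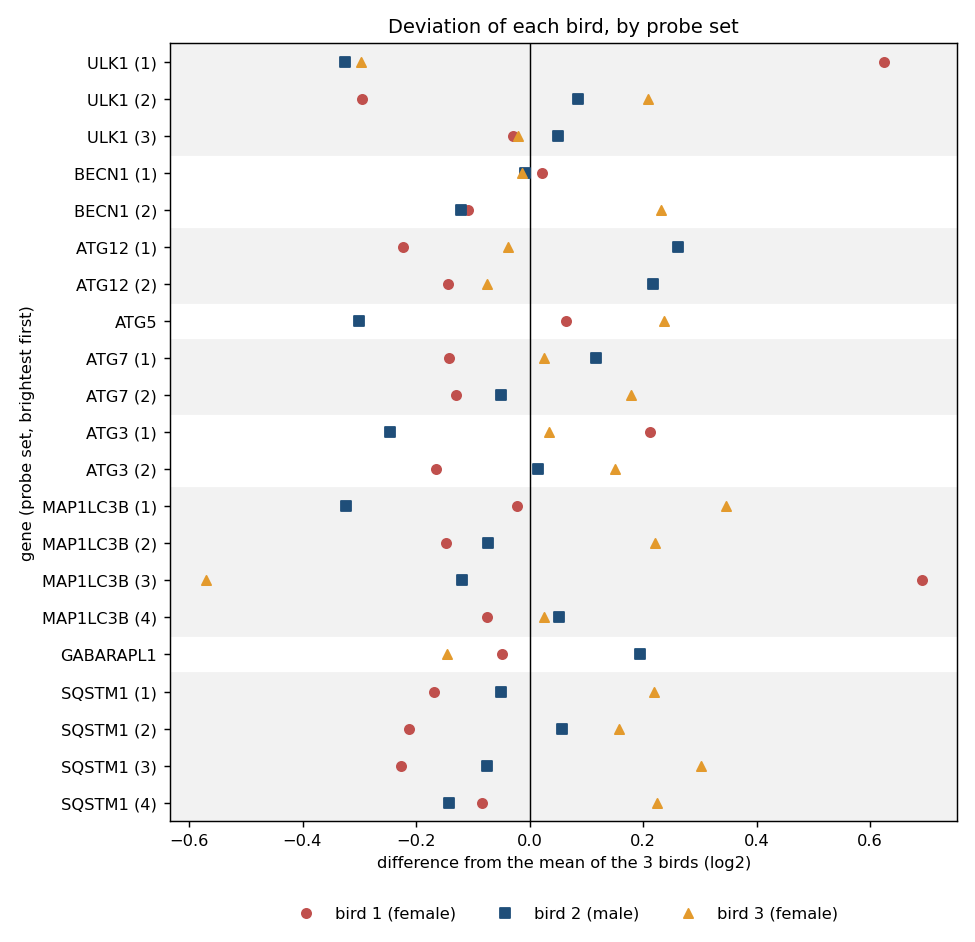
Signal of each bird minus the average of all 3 on the log2 scale (x axis) for the 21 probe sets (y axis), 1 point per bird. ATG12 shows bird 2 highest on both probe sets. Bird 1 lies above 0 and bird 3 below 0 on ULK1 (1) and MAP1LC3B (3). The reverse holds on ULK1 (2) and the other MAP1LC3B probe sets, and on ULK1 (3) both birds lie just below 0.

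Taken by probe set, bird 3 was the highest on 11 of the 21, against 30.9% of all probe sets, and bird 1 the lowest on 12, against 34.7%. Bird 3 was the lowest on 3, against 34.2%, and bird 1 the highest on 4, against 27.7%. Bird 2 was the highest on 6, against 41.4%, and the lowest on 6, against 31.2%. SQSTM1 alone gives 4 of the 11. Probe sets of 1 gene are not independent, and by gene bird 3 was the highest in 3 of 9, beside 31.0% of all genes. The median shift over the 9 genes, that is a bird minus the mean of the others, was -0.03 in bird 1 and -0.08 in bird 2, and for bird 3 it was 0.04. Over all 12913 genes it was -0.02, 0.04 and -0.01. With every probe set counted on its own, the medians over the 21 were -0.16, -0.07 and 0.23.

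The median SD was 0.23 over the 9 genes and 0.20 over all genes, with 5 of the 9 above the latter. This order turned without bird 2, with medians of 0.13 and 0.14, and with the probe sets of a gene averaged, with 0.12 and 0.16. A range over 0.5 was found on 6 of the 21 probe sets, beside 29.3% of all probe sets, and a range over 0.9 on 2, beside 6.27%. Of the 7 genes with several probe sets, 2 had the same highest bird on every one, SQSTM1 and ATG12, and 2 the same lowest bird, ATG12 and ATG7. Over the 7076 genes with several probe sets, 24.0% had the same highest bird on every one. ATG12 and ATG7 have 2 probe sets each. Of the 3624 genes with 2, 36.0% had the same highest bird on both and 37.3% the same lowest bird.

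Sex is the only label that divides the birds, and with 1 male the difference between sexes and that between single birds cannot be told apart. No probe set of a core gene passed an adjusted p of 0.05 from limma for the male against the females (0 of 21, the smallest adjusted p being 0.596, and 0 of 21 also at an unadjusted p under 0.05). Over all 36813 probe sets limma called 0% higher and 0% lower in the male, and 9.78% had an unadjusted p under 0.05. The fit has 1 residual degree of freedom, from the females, to which limma adds 7.35 from the spread over all probe sets. The intervals and standard errors thus rest mostly on that shared spread and do not measure the spread between the females of a single probe set. The intervals were wide and do not show that the sexes were alike. For ATG5 the difference was -0.45 with a 95% interval from -0.99 to 0.09, and for MAP1LC3B on the brightest probe set it was -0.49, from -1.07 to 0.10. On the same scale ULK1 had -0.49 on the brightest probe set (limma standard error 0.36), which became -0.03 without bird 1 and -0.95 without bird 3.

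**Figure D3:**
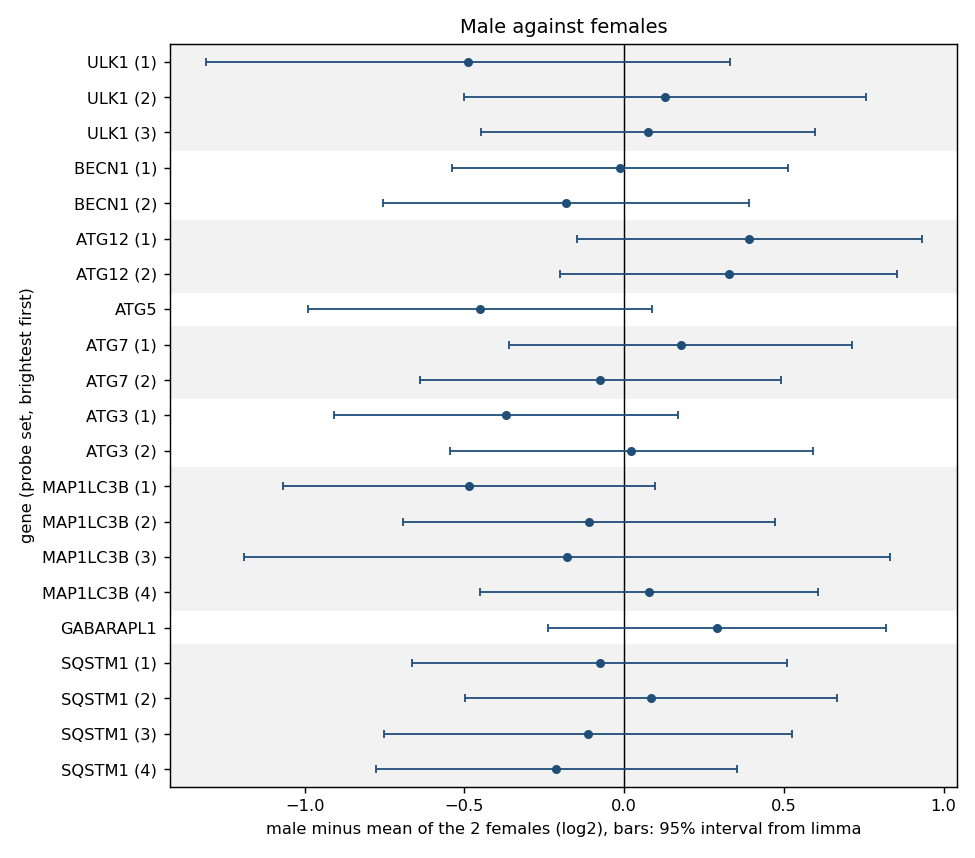
Male minus the mean of the 2 females on the log2 scale (x axis) for the 21 probe sets (y axis), with 95% intervals from limma. Every interval includes 0, and the largest differences are those of ULK1 (1), which is -0.03 without bird 1, MAP1LC3B (1) and ATG5, all lower in the male.

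ATG12 was the only one of the 9 genes placed on chromosome Z by RefSeq in the king penguin genome (bAptPat1.pri.cur), where all 9 were found by symbol. Male birds carry a pair of Z chromosomes and females a single one. Both ATG12 probe sets are of the type that can bind several transcripts, and the dimmer lay in the dimmest 25%. The male was above both females on both ATG12 probe sets, by 0.39 (limma standard error 0.24, adjusted p = 0.653) and 0.33 (limma standard error 0.23, adjusted p = 0.709) against their mean. The median of the same difference was 0.13 over the 464 genes placed on Z and 0.03 over the 9997 genes placed on other named chromosomes except W. The male was above both females in 55.2% of the genes on Z and in 40.6% of the others. A difference as high as that of ATG12 or higher was found for 20.0% of the genes on Z and 10.4% of the others. ATG10, which joins ATG12 to ATG5 and is also placed on Z, read 8.65, 8.86 and 8.74 in birds 1, 2 and 3, in the same order as ATG12. The part of the Z chromosome in the ATG12 values was not tested.

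Other genes had nearly the same pattern over the 3 birds as ULK1. On the brightest probe set, ERC1, CCDC92 and TMEM151B were the nearest of the 12904 other genes, by the Euclidean distance between the values after each gene was centred on its own mean. ERC1 read 11.04, 10.10 and 10.13 in birds 1, 2 and 3, at a distance of 0.0065. In all 22 genes lay within a distance of 0.1, and bird 1 exceeded the mean of the others by as much as in ULK1 or more in 264 genes, 2.04% of all. The likeness rests on 3 birds.

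Other genes of the pathway were taken from a list of 96, of which 83 were measured. By the brightest probe set bird 1 was the highest for 26, bird 2 for 26 and bird 3 for 31, beside 27.5%, 41.5% and 31.0% of all genes, and the median shifts were 0.02, -0.03 and 0.07. The male was the lowest in 37 of the 83, beside 32.5% of all genes. On the brightest probe set, the median of the male minus the mean of the females was -0.03 over the 83 and 0.04 over all genes. For the 29 lysosome and fusion genes the medians were 0.01, -0.03 and 0.16. The 14 regulators had -0.10, 0.00 and 0.03. That list mixes activators and inhibitors of autophagy, which its medians do not separate.

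Among the lists the male lay farthest below the females in the following. The 6 measured genes of lipid transfer and of proteins that bind the marked membrane had medians of 0.40 in bird 1, -0.63 in bird 2 and 0.11 in bird 3, with 4 of the 6 lowest in the male, which is the lowest in 32.5% of all genes. The 8 genes listed with the lipid kinase complex had -0.02, -0.28 and 0.35, with 5 lowest in the male. Not all of these encode its subunits. Highest in the male were 3 of the 8: AMBRA1 and VMP1, which do not, and ATG14, which does. ATG14 read 8.13, 8.24 and 8.20 in birds 1, 2 and 3. The 7 mitophagy genes had 0.07, -0.44 and 0.12, with 4 lowest in the male. By contrast the 3 measured relatives of LC3 had 0.02, 0.08 and 0.00, and the 5 conjugation enzymes had -0.13, 0.07 and 0.04. The 5 genes of the ULK1 complex and its relatives had 0.01, -0.03 and 0.05, and the 6 cargo receptors other than SQSTM1 had 0.30, -0.15 and -0.01.

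**Figure D4:**
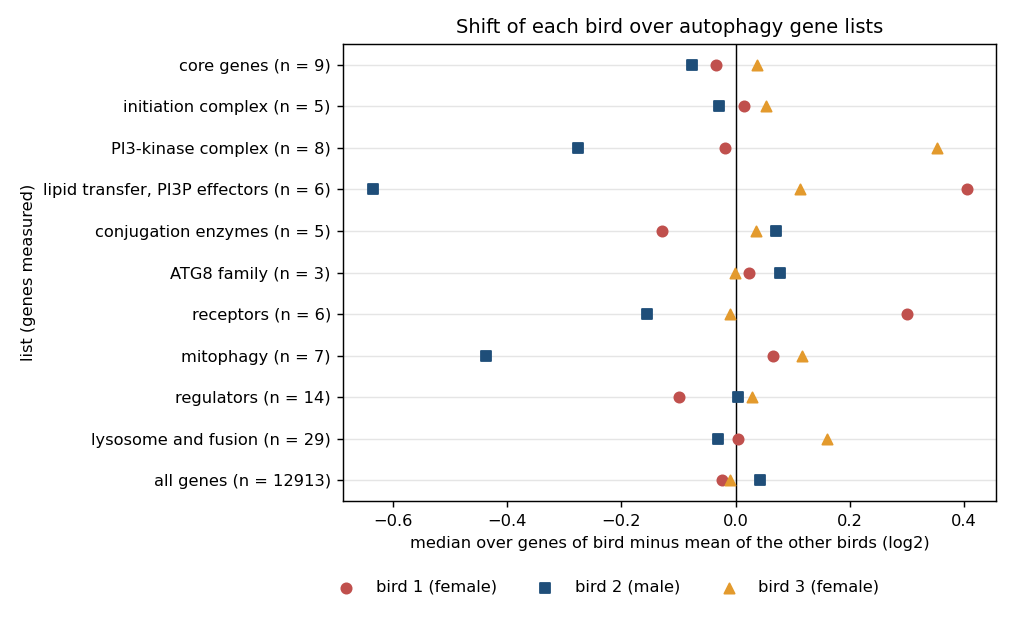
Median over genes of a bird minus the average of the other birds on the log2 scale (x axis), for the 9 core genes, 9 lists of other autophagy genes and all 12913 genes (y axis), 1 point per bird. The core genes lie within 0.08 of 0 in every bird, and the lipid transfer list lies at -0.63 in bird 2.

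The 3 genes of the list with the widest range were BNIP3L, WDR45B and ZFYVE1, each lowest in the male on the brightest probe set. BNIP3L, a receptor that takes mitochondria into autophagosomes and does so in maturing red blood cells of mammals, read 12.26, 9.998 and 11.25 in birds 1, 2 and 3 (range 2.26) on its only probe set. WDR45B, which binds the phospholipid made by the lipid kinase complex, read 11.07, 9.49 and 10.45, and on each of its 5 probe sets bird 1 was the highest and bird 2 the lowest. ZFYVE1, which marks the membrane site where autophagosomes form, read 11.19, 10.003 and 10.45 on the brighter probe set and 9.28, 9.51 and 9.56 on the other, where bird 1 was the lowest.

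Some red blood cell markers, the globin genes HBA1, HBAD and HBBR and the carbonic anhydrase gene CA2, had the same order of birds as BNIP3L, and the other measured markers, SLC4A1, EPB42, HEMGN and SPTB, did not. The summed linear signal of the 8 measured of 13 listed markers came to 82726 for bird 1, to 49625 for bird 2 and to 64058 for bird 3, with 5 of the 8 highest in bird 1 and 5 lowest in bird 2. The bright globin genes make up most of this sum. CA2 read 12.59, 10.78 and 11.70 and HBAD read 14.95, 14.06 and 14.41, whereas SPTB, a spectrin of the red blood cell membrane, read 10.40, 10.63 and 10.73, with bird 1 the lowest. Leukocyte markers summed to 4459, 5887 and 6202 (7 of 7 measured), adipocyte markers to 3245, 3725 and 4347 (6 of 6), fibroblast and matrix markers to 10140.5, 6706 and 6088 (7 of 7), and endothelial markers to 7654, 7453 and 7485 (6 of 6), while skeletal muscle markers summed to 156059, 168522 and 168352. Bright genes weigh most in these sums too. ACTA1, at 15.27 in every bird, adds the same amount to each muscle sum. Of the fibroblast and matrix markers, COL3A1 read 12.00, 10.94 and 10.36 in birds 1, 2 and 3, whereas LUM was lowest in bird 1. By gene, bird 1 was highest in 4 of these 7, beside 27.5% of all genes. It was above the mean of the others in 0 of 9 muscle markers, against 5999 of all 12913 genes. ACTA1, one of the 9 and equal in every bird, could not be above it. Bird 3, which had the highest SQSTM1, was highest in 2 of 7 leukocyte and 3 of 6 adipocyte markers. Over all genes its share was 31.0%. It was above the mean of the others in 6 of the 7 and 5 of the 6, against 6293 of all 12913 genes. Bird 2 was highest in 4 of the 7 leukocyte markers and 2 of the 6 adipocyte markers, beside 41.5% of all genes. It was above the mean of the others in 5 of the 7 and 2 of the 6, against 7104 of all 12913 genes. CD74, the leukocyte marker with the widest range, read 9.89, 10.81 and 11.34 in birds 1, 2 and 3. In a whole biopsy fewer cells of a type and less RNA per cell cannot be told apart. The part of these cells in the values of SQSTM1, and the part of red blood cell RNA in the values of BNIP3L, WDR45B and ULK1 was not tested.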

How the data were processed

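Muscle RNA of 3 AA birds was measured on 1 array each. The authors combined the signals of a probe set by MaxRS, which was developed for hybridization of one species to the array of another, converted them to log2 and normalized the arrays by quantiles, and these log2 values are what they deposited. The sources used here do not give the number of arrays normalized together. The processing notes name limma without a version. Ranked within each array, the deposited values differ between arrays by no more than 0.017.

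No further normalization was applied. The platform annotation names 1 gene for 26041 probe sets, several for 170 and none for 10602. A gene was represented by the probe set with the highest mean. Chromosomes came from RefSeq by gene symbol, without coordinates. The male was compared with the females by limma 3.58.1 (lmFit and eBayes, R 4.3.3) on all 36813 probe sets with Benjamini-Hochberg adjustment, two-sided, threshold 0.05. The same fit was also run on simulated data, with spreads drawn from those that limma fitted to these arrays. Where a change was simulated, it was larger than any male minus female difference of a core gene. Single birds and lists of genes were described without a test. Each sample is a separate bird, and the number of arrays limits the precision. All 9 core genes are named. Of the other autophagy genes the 3 with the widest range are named, with the 3 genes nearest to the core gene of widest range. The 96 other genes were listed by role, and CA2, HBAD, SPTB, CD74, ACTA1, COL3A1, LUM, ATG10, AMBRA1, VMP1, ATG14 and the shares of probe sets were chosen after values were seen. The members and lists were chosen with earlier results of these data known.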

Additional observations from a re-analysis of the deposited data

How the results depend on the processing

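The alternatives were a new quantile normalization, centring on array medians, filters on dim and on cross-binding probe sets, averaging the probe sets of a gene, the mean over genes, an intensity trend in limma and leaving out 1 bird. Counting every probe set on its own was added after the data were seen. For the male against the females, the 0 probe sets past the threshold over the array became 7 without cross-binding probe sets and 2 with an intensity trend in limma, and the core genes gave 0 under every alternative. The median SD of 0.23 ranged from 0.13 (without bird 2) to 0.21 when 1 bird was left out, was 0.12 after averaging a gene's probe sets, and lay between 0.20 and 0.24 otherwise. The median shift of bird 1 turned from -0.03 to 0.05 with the mean over genes and ran from -0.17 to 0.03 without 1 bird. That of bird 2 ran from -0.22 without the dimmest 25% to -0.03, and that of bird 3 from 0.03 to 0.23. The shift of bird 3 was largest, 0.23, with every probe set counted on its own, against 0.04 by gene. Bird 3 stayed highest on 11 probe sets under both normalizations, which hardly change arrays already normalized by quantiles. The male minus female differences turned sign in 9 of the 42 values without a female. They kept it in all 90 values that left out no bird, but this was nearly fixed beforehand. The filters and the intensity trend leave the difference of a probe set as it is, and the new normalizations hardly change it. No paired analysis was possible because there is 1 group. With 1 array per bird, differences of about the SD between birds cannot be told from array error.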
